A study of Mus musculus with 9 samples.

Results

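The genes described here belong to enzyme families that write or remove marks on chromatin. They were chosen by name: every gene whose symbol starts with Kdm, Kmt, Kat, Hdac, Sirt, Setd, Ezh, Dnmt or Tet followed by a digit, with a mean of 10 or more normalized reads over the 9 libraries of the study. Of 60 symbols with such a name, 57 passed, out of 11357 genes that reached this level and 23420 genes in all. They comprised 16 lysine demethylases, 3 methyltransferases of histone H3 lysine 4 or 36, 2 of lysine 27, 6 other SET domain methyltransferases, 7 lysine acetyltransferases, 10 zinc-dependent deacetylases, 7 sirtuins, 3 DNA methyltransferases and 3 TET dioxygenases. Dnmt3l and Kdm5d had no read in any library, and Hdac11 fell short with a mean of 9.46. Hdac11 had 0 reads in all 3 synovial libraries, normalized counts of 21.7, 22.1 and 1.75 in the arthritic node libraries and 13.0, 0.903 and 25.6 in the control node libraries. The lowest member that passed was Hdac9, with a mean of 23.1. No symbol started with Kmt, because the table carries older names for those genes.

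RNA was sequenced from regulatory T cells (Tregs), the CD4 T cells that depend on the transcription factor Foxp3 and restrain immune responses. All mice were labelled WT, the cells were sorted by a YFP reporter of Foxp3, and their sex and age are not stated in the labels. There were 3 libraries of synovial Tregs from mice with collagen-induced arthritis, a model in which immunization against collagen leads to joint inflammation, 3 of Tregs sorted from nodes that drain the paws of arthritic mice (CIA_dLN, here arthritic nodes), and 3 from the same nodes in mice with no treatment (Ctrl_dLN, here control nodes). The titles number the mice, and synovial and arthritic node libraries with the same number were read as coming from the same mouse. Synovial cells came from digested paws.

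Histone tails carry methyl and acetyl groups that are added and removed by opposing enzymes. Methylation of H3K4 and acetylation mark active genes, while methylation of H3K27, placed by the Polycomb complex PRC2, keeps genes silent. DNMT enzymes methylate CpG sites in DNA, and TET enzymes oxidize that methyl group as the first step of its removal. In Tregs, stable Foxp3 transcription depends on an unmethylated CpG-rich enhancer within the Foxp3 gene, and Foxp3 protein is itself acetylated and deacetylated by enzymes of these families.

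Each library held 11300406 to 12855435 reads in genes, and the log2 values of replicate libraries had Pearson's r of 0.910 to 0.946 across genes. Control node library 1 stood apart, at 83.5 on the second principal component (10.9% of the variance) against -41.4 to 18.8 for the other libraries. Synovial library 3 held more reads of fibroblast genes than the others, with 455 normalized counts of Dcn against 16.5 and 25.8 in synovial libraries 1 and 2, and results that change without it are given beside the gene. Values are the authors' normalized read counts, in which reads per gene are divided by a size factor for each library. Means are given ± SD (n = 3). Fold changes are log2 ± standard error of log2(value + 1) from limma, with adjusted p-values (Benjamini-Hochberg) over all 11357 genes, and a gene was called changed at an adjusted p under 0.05. Foxp3, whose reporter was used for the sort, averaged 465 ± 65.3 in synovial, 269 ± 41.0 in arthritic node and 266 ± 123 in control node Tregs. The labels number separate mice, but the p-values measure only the spread among 3 libraries a group. That spread was pooled over the groups, and the main fit did not pair libraries by mouse. In bulk RNA, a change in how many cells express a gene cannot be told apart from a change in RNA per cell.

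In the tissue comparison, synovial Tregs against node Tregs of arthritic mice, 18 of the 57 enzyme genes changed (31.6%), 10 higher and 8 lower. Of all genes tested, 33.8% changed, 17.9% higher and 15.9% lower, so the share among the enzymes was near the background. What the enzymes showed lay in which of them moved. The H3K27 demethylase gene Kdm6b and the H3K36 demethylase gene Kdm2b were 11.2-fold and 9.57-fold higher in synovial Tregs, beyond any other member. Sirt1, Hdac4 and Tet2 were higher by about 1 log2 unit, and Kat6b, Sirt2, Setd2, Kdm5c and Kdm6a by 0.56 to 0.69. The acetyltransferase genes Kat2a and Kat2b, the sirtuin gene Sirt5 and the deacetylase genes Hdac7 and Hdac10 were lower by 0.91 to 1.98, and Dnmt1, Kdm4c and Hdac1 by 0.33 to 0.63. The median log2 fold change of the 57 was -0.25, against 0.00 for all genes tested. The libraries of the groups did not overlap for 24 of the 57 (42.1%, 10 higher and 14 lower), against 48.2% of all genes tested (25.2% higher and 23% lower). The authors' deposited table, a DESeq2 comparison of the same groups, called the same 18 genes, in the same directions. Under quantile normalization, which moved the median of all genes by -0.12, 6 of the enzyme genes were higher and 13 lower. Without synovial library 1 or 3, or without arthritic node library 2, the number higher was 6, 6 and 5, against 10 with all libraries, and without synovial library 3 the number lower was 12, against 8.

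**Figure D1:**
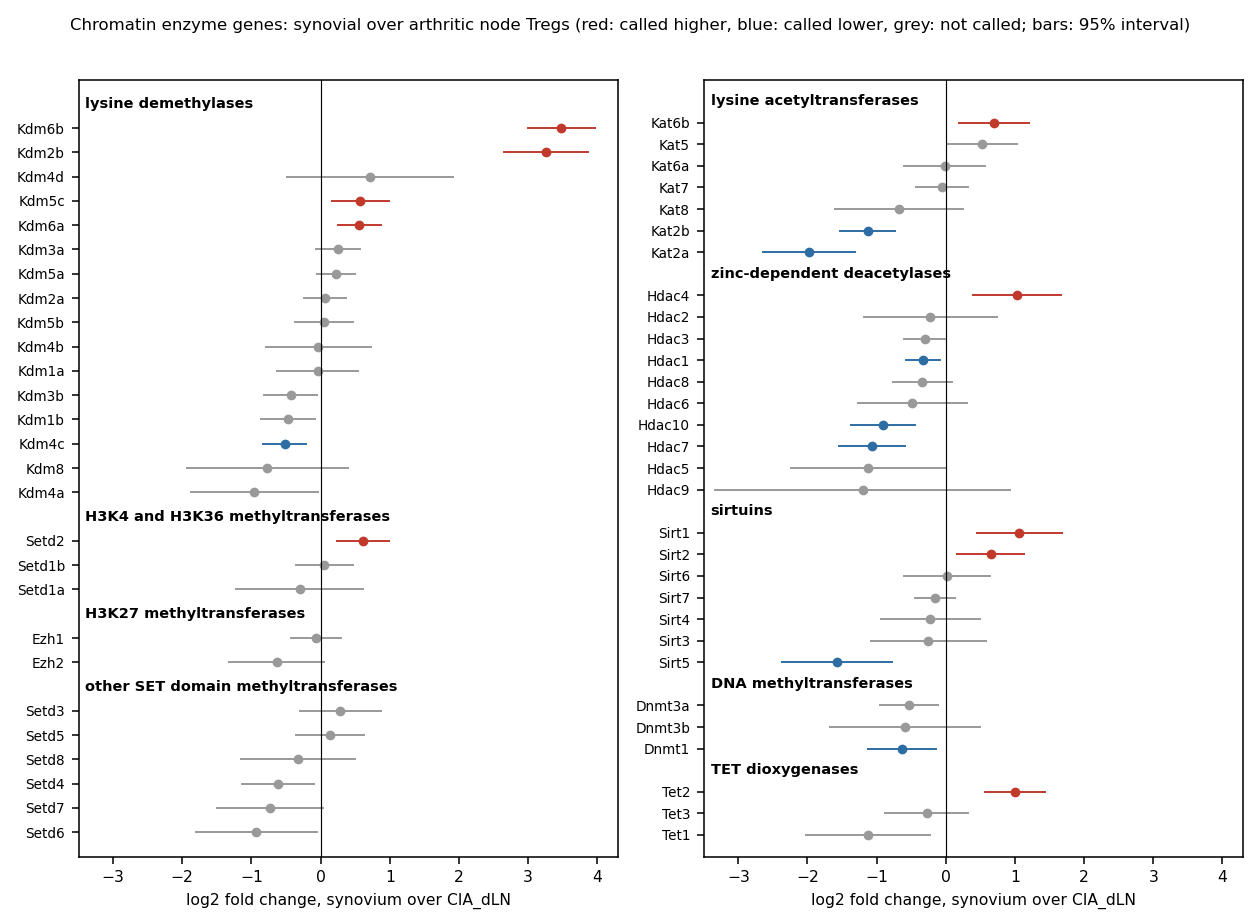
Log2 fold change of each of the 57 enzyme genes in synovial over arthritic node Tregs (x axis, points, with 95% intervals as bars), grouped by enzyme class. Kdm6b and Kdm2b lie at 3.48 and 3.26, apart from the other members, which lie between -1.98 and 1.07.

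Lysine demethylases remove methyl groups from histone tails, each with its own choice of residue. Of the 16 tested, 4 rose in synovial Tregs, 1 fell and 11 did not pass the test (31.25% called, against 33.8% of all genes). Kdm6b (JMJD3; chromosome 11, 69398508 to 69413675, minus strand, GRCm38) is an inducible enzyme that removes methyl groups from H3K27 and so opposes PRC2. Its normalized counts were 3335, 5468 and 2759 in the synovial libraries, 310.5, 330.01 and 349 in the arthritic node libraries and 323, 395 and 412 in the control node libraries. Every synovial library was far above every node library, synovial library 2 was the highest, and the 2 kinds of node overlapped. The log2 fold change was 3.48 ± 0.22 (adjusted p = 2.6e-07) over arthritic nodes and 3.30 ± 0.22 (adjusted p = 3.22e-07) over control nodes.

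Kdm6a (UTX; chromosome X, 18162575 to 18279936, plus strand) acts on the same residue and is encoded on the X chromosome. Its normalized counts were 1289, 1649.7 and 1607 in synovial Tregs, 1103, 933 and 1031 in arthritic nodes and 1099, 945 and 1113 in control nodes. The synovial libraries were above all node libraries by a small margin, with a log2 fold change of 0.56 ± 0.14 (adjusted p = 0.00867) over arthritic nodes. Under quantile normalization the call was lost (adjusted p = 0.0599). In node Tregs Kdm6a was the more abundant of the pair per kilobase of exon, with 122 normalized counts per kilobase in arthritic nodes against 47.4 for Kdm6b. In synovial Tregs the order was turned round, with 554 per kilobase for Kdm6b and 181 for Kdm6a.

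Kdm2b (chromosome 5, 122870665 to 122989823, minus strand) removes methyl groups from H3K36 and, through a CXXC zinc finger that binds unmethylated CpG sites, brings a form of the Polycomb complex PRC1 to CpG islands. Its normalized counts were 3049, 3413 and 3129.6 in synovial Tregs, 297, 366 and 339.8 in arthritic nodes and 145, 255 and 396 in control nodes. The 3 synovial libraries were close to each other and far above the nodes, while the control node libraries spread widely. Over arthritic nodes the log2 fold change was 3.26 ± 0.28 (adjusted p = 3.46e-06). Exons of Kdm2b overlap those of Rnf34 and A930024E05Rik on the opposite strand, as those of Kdm6b do with Kdm6bos. The library kit was directional, but whether reads were counted by strand is not stated. Rnf34 averaged 606 ± 28.5 in synovial Tregs and 813 ± 98.4 in arthritic nodes, and A930024E05Rik 143 ± 23.2 and 99.6 ± 19.5. Gm44574, on the same strand, shares exon sequence with Kdm2b, so reads of the 2 cannot be told apart there. Kdm2a, a close relative of Kdm2b that acts on the same residue, averaged 943 ± 69.5 in synovial Tregs and 903 ± 92.6 in arthritic nodes, a log2 fold change of 0.07 (95% interval -0.24 to 0.37).

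Kdm2b has several annotated starts, and read counts per gene do not separate them. The stretch before an internal start of Kdm2b, as given by RefSeq (GRCm38.p6), is shown because this gene rose strongly and its product binds CpG sites, and the stretch before the start of Kat2a, the member that fell most, is shown for contrast. Both are on the minus strand, written 5′ to 3′ toward the gene, and capitals mark CpG sites. The Kdm2b stretch (chr5:122900356-122900600) holds 36 CpG in 245 bases and the Kat2a stretch (chr11:100712468-100712717) 11 CpG in 250 bases.
Kdm2b internal start: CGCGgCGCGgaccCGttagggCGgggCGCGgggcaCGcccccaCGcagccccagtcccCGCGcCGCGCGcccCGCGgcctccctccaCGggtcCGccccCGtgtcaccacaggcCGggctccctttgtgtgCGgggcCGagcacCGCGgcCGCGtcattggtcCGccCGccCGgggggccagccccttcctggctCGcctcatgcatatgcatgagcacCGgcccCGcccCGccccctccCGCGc
Kat2a start: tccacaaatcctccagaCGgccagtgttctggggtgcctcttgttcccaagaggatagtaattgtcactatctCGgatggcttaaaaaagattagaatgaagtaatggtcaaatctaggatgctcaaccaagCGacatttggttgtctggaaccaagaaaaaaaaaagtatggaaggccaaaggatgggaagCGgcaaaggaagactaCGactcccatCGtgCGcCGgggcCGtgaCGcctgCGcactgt
The ratio of observed to expected CpG was 0.942 before this start of Kdm2b and 0.746 before Kat2a. Over the listed Kdm2b starts, windows of 250 bases held from 12 CpG (ratio 0.660) to 38 CpG (ratio 0.958). The contrast with Kat2a therefore depends on the start chosen. Over the 46 members with an entry, 80.4% had a ratio of 0.6 or more in the 250 bases before at least 1 start, against 36.5% of 27025 genes of all kinds. The motif is CG, which reads the same on both strands. The median was 17 CpG sites per window for members and 6 for all windows. Members had passed the filter on mean reads, whereas the genes of all kinds were not filtered. Neither the shares nor the medians therefore compare like with like. A match says nothing of methylation, which was not measured.

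Kdm5c (chromosome X, 152233020 to 152274535, plus strand), a demethylase of H3K4, had normalized counts of 721, 639.9 and 787 in synovial Tregs, 413, 469.5 and 569.6 in arthritic nodes and 350.3, 450.5 and 465 in control nodes. All synovial libraries were higher than all node libraries, with a log2 fold change of 0.57 ± 0.19 (adjusted p = 0.0348) over arthritic nodes. It was no longer called when synovial library 1 or 3 was left out (adjusted p = 0.0849 and 0.0955), when library 1 or 2 of the arthritic nodes was (0.13 and 0.0879), nor in edgeR's quasi-likelihood test (0.0532), and under quantile normalization its adjusted p was at the threshold. Its relatives Kdm5a and Kdm5b, of the same specificity, had log2 fold changes of 0.22 (95% interval -0.06 to 0.50) and 0.05 (95% interval -0.37 to 0.47), neither called. Kdm5a was the third most abundant member per kilobase in both kinds of node.

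Kdm4c, which acts on H3K9 and H3K36, was the only demethylase gene called lower. Its normalized counts were 621, 639.9 and 559.6 in synovial Tregs, 905, 788 and 914 in arthritic nodes and 771, 817 and 720.4 in control nodes, so that all synovial libraries lay below all node libraries. The log2 fold change was -0.52 ± 0.14 (adjusted p = 0.0144), and the call was lost without arthritic node library 1 or 3 (adjusted p = 0.0552 and 0.055). Kdm4a, Kdm4b and Kdm4d, its relatives, were not called, with log2 fold changes of -0.96, -0.03 and 0.71. Kdm4a reached an adjusted p of 0.0211 without synovial library 3. The flavin-dependent H3K4 demethylase genes Kdm1a and Kdm1b had log2 fold changes of -0.04 and -0.47 (adjusted p = 0.928 and 0.0627). Kdm1b was called without arthritic node library 1 (0.0301), under TMM and quantile scaling and in edgeR's quasi-likelihood test (0.0358 to 0.0464). The H3K9 demethylase genes Kdm3a and Kdm3b had 0.26 and -0.43, and Kdm8 had -0.77, none of them called, though Kdm3b was without synovial library 3 (adjusted p = 0.0336).

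**Figure D2:**
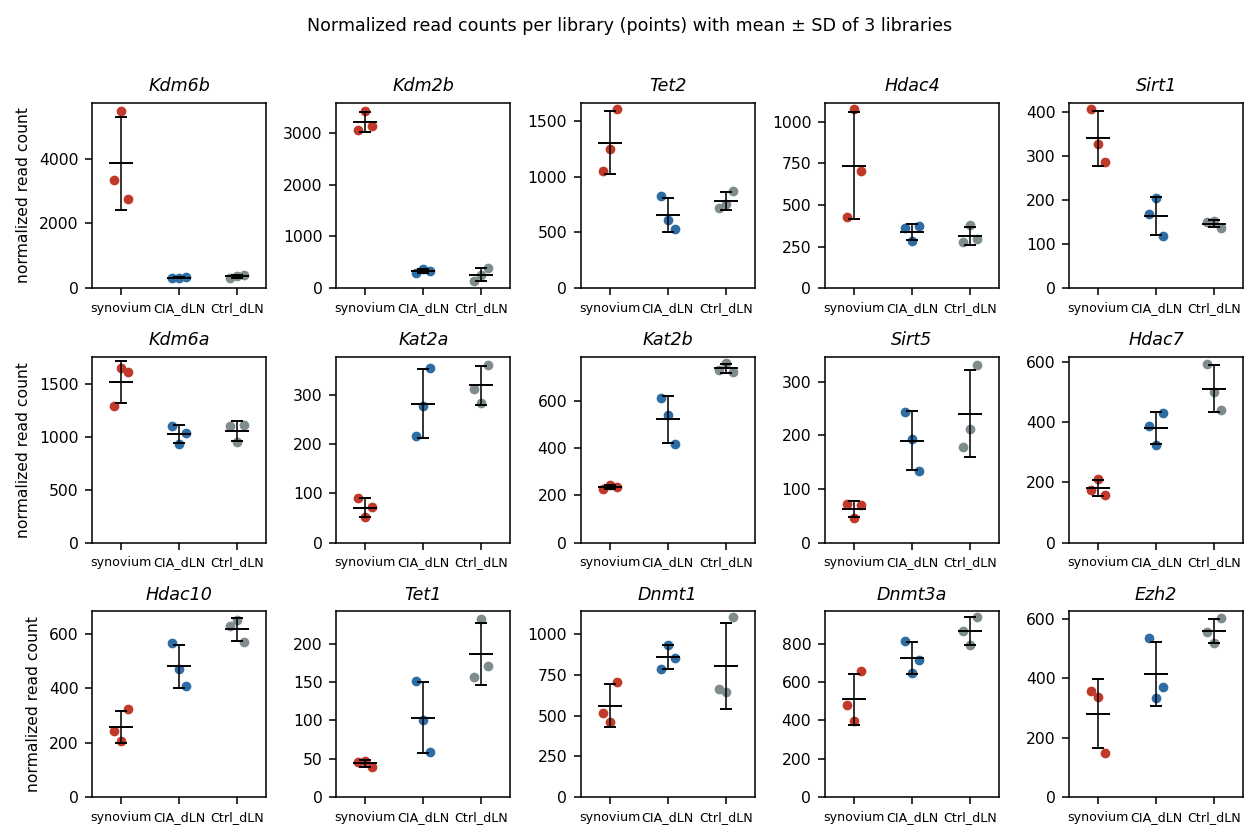
Normalized read counts (y axis, from 0) of 15 enzyme genes in each library of synovial, arthritic node (CIA_dLN) and control node (Ctrl_dLN) Tregs (points), with the mean ± SD of 3 libraries. Kdm6b and Kdm2b are at 2759 or more in each synovial library and at 412 or less in each node library, while Kat2a, Kat2b, Sirt5, Hdac7, Hdac10 and Tet1 are lowest in synovial Tregs.

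Of 11 SET domain methyltransferase genes tested, Setd2 rose in synovial Tregs and the other 10 did not pass the test. Among all genes tested, 33.8% were called. Setd2 (chromosome 9, 110532597 to 110618633, plus strand), which places trimethylation on H3K36 in transcribed genes, had normalized counts of 1104, 1709.6 and 1629 in synovial Tregs, 1080.1, 902 and 887 in arthritic nodes and 1128, 1054 and 955 in control nodes. Synovial library 1 lay just above arthritic node library 1 and below control node library 1, while the other synovial libraries were well above all nodes. Over arthritic nodes Setd2 had a log2 fold change of 0.61 ± 0.17 (adjusted p = 0.0166). Setd2 was no longer called without synovial library 2 or 3 (adjusted p = 0.0622 and 0.06), arthritic node library 2 or 3 (0.0583 and 0.0605), and under quantile normalization (0.0547). Setd1a and Setd1b, the catalytic subunits of SET1 complexes that methylate H3K4, had log2 fold changes of -0.30 and 0.05, neither called.

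Ezh2 and Ezh1 are the alternative catalytic subunits of PRC2, and Ezh2 is known to be needed for stable Treg identity after activation. Ezh2 had normalized counts of 357, 337 and 147 in synovial Tregs, 536, 333 and 372 in arthritic nodes and 556, 519 and 603 in control nodes. Synovial and arthritic node libraries overlapped, and the log2 fold change of -0.63 ± 0.31 (adjusted p = 0.144) was not called, whereas all synovial libraries lay below all control nodes, -1.10 ± 0.31 (adjusted p = 0.0153). Ezh1 had 839, 761 and 1038 in synovial Tregs, 1063, 925 and 772 in arthritic nodes and 752, 767 and 756 in control nodes, overlapping throughout between synovium and nodes, with a log2 fold change of -0.07 (95% interval -0.42 to 0.29) over arthritic nodes. Of the other SET domain genes, Setd3, Setd5, Setd8 (now named Kmt5a, which monomethylates H4K20), Setd4, Setd7 and Setd6 had log2 fold changes of -0.93 to 0.29, none called. The call for Setd7 was gained without synovial library 2 (adjusted p = 0.025).

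Genes of the MLL family, some of which encode H3K4 methyltransferases, stand in the table under older symbols. Their values are given although the name rule missed them. Mll5, now Kmt2e, averaged 8848 ± 2228 in synovial Tregs and 5469 ± 197 in arthritic nodes, with a log2 fold change of 0.67 ± 0.15 (adjusted p = 0.00501). Mll3, now Kmt2c, averaged 1631 ± 171 and 2185 ± 223 in the same order, -0.42 ± 0.15 (adjusted p = 0.0437). Mll1, Mll2 and Wbp7 were not called, with adjusted p-values of 0.743, 0.102 and 0.966. Jhdm1d, now Kdm7a, averaged 1100.1 ± 67.0 in synovial Tregs and 776 ± 13.6 in arthritic nodes, 0.50 ± 0.14 (adjusted p = 0.014). These genes were looked up after other values had been seen.

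Lysine acetyltransferases add acetyl groups to histone tails. Of 7 genes tested, 1 rose, 2 fell and 4 did not pass the test (42.9% called, against 33.8% of all genes). Kat2a (GCN5; chromosome 11, 100704746 to 100712465, minus strand) and Kat2b (PCAF; chromosome 17, 53566861 to 53672720, plus strand) are alternative catalytic subunits of the SAGA and ATAC coactivator complexes and acetylate H3K9. Kat2a had normalized counts of 90.4, 51.7 and 71.9 in synovial Tregs, 216, 277 and 355 in arthritic nodes and 312, 284 and 362 in control nodes. No synovial library came within 2-fold of a node library, and the log2 fold change of -1.98 ± 0.30 (adjusted p = 0.000341) over arthritic nodes was the lowest of all 57 members. Kat2b had 228, 243 and 234 in synovial Tregs, 611, 539 and 416 in arthritic nodes and 732, 758 and 723 in control nodes. The synovial libraries of Kat2b were nearly equal and lay below all nodes, and arthritic node libraries in turn lay below all control node libraries. Kat2b had a log2 fold change of -1.13 ± 0.19 (adjusted p = 0.000539) over arthritic nodes and -1.65 ± 0.19 (adjusted p = 2.27e-05) over control nodes.

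Kat6b (MORF), which acetylates histone H3, had normalized counts of 340.5, 358 and 378 in synovial Tregs, 259, 194 and 215 in arthritic nodes and 158, 199.5 and 194 in control nodes. All synovial libraries were above all nodes, with a log2 fold change of 0.69 ± 0.23 (adjusted p = 0.0355) over arthritic nodes. It was no longer called without synovial library 1, 2 or 3 (adjusted p = 0.0694, 0.0749 and 0.0817), without arthritic node library 2 or 3 (0.112 and 0.0868), and in a fit of only the groups compared with mouse number as a block (0.0542). Kat5 (TIP60), which acetylates histones and also Foxp3, averaged 791 ± 85.4 in synovial Tregs, 569 ± 197 in arthritic nodes and 605 ± 113 in control nodes, a log2 fold change of 0.52 ± 0.23 (adjusted p = 0.106). It was called without arthritic node library 3 (0.0164), the highest of its group. Kat6a, Kat7 and Kat8 had log2 fold changes of -0.02 (95% interval -0.61 to 0.57), -0.05 (95% interval -0.42 to 0.33) and -0.68 (95% interval -1.60 to 0.24).

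Zinc-dependent deacetylases remove acetyl groups. Of 10 tested, 1 rose, 3 fell and 6 did not pass the test, against 17.9% higher and 15.9% lower among all genes. The class median was -0.41, against 0.00 for all genes, and 6 of the 9 genes with a negative value were not called. The one that rose was Hdac4 (chromosome 1, 91928779 to 92195699, minus strand), a class IIa enzyme that shuttles between nucleus and cytoplasm and represses MEF2 factors. Hdac4 had normalized counts of 431, 1073 and 706 in synovial Tregs, 360.03, 286 and 371 in arthritic nodes and 277, 377 and 293 in control nodes. The synovial libraries spread from near the nodes in library 1 to far above them in library 2, without overlap. The log2 fold change was 1.03 ± 0.29 (adjusted p = 0.0163), but Hdac4 was not called when library 2 of the synovium or of the arthritic nodes was left out (adjusted p = 0.0675 and 0.065).

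Hdac7 (chromosome 15, 97792664 to 97844502, minus strand) belongs to the same class IIa, is abundant in T-lineage cells and moved the other way. Its normalized counts were 175, 211 and 159.6 in synovial Tregs, 388, 324 and 432 in arthritic nodes and 594, 499 and 439 in control nodes. Exons of Hdac7 overlap those of Slc48a1 on the opposite strand, which averaged 514 ± 88.9 in synovial Tregs and 429 ± 54.5 in arthritic nodes. The 3 groups formed 3 steps without overlap, lowest in synovium, and the log2 fold change over arthritic nodes was -1.06 ± 0.22 (adjusted p = 0.00266). Hdac10 (chromosome 15, 89123307 to 89128700, minus strand), a class IIb enzyme that acts on polyamines, had 244, 205 and 323 in synovial Tregs, 564, 471 and 407 in arthritic nodes and 628, 652 and 569.7 in control nodes. It showed the same 3 steps, with a log2 fold change of -0.91 ± 0.21 (adjusted p = 0.00563) over arthritic nodes. Hdac5 and Hdac9, the other class IIa genes, were low and variable, with log2 fold changes of -1.12 (95% interval -2.24 to -0.01) and -1.20 (95% interval -3.34 to 0.93). Hdac5 was called without synovial library 3 (adjusted p = 0.0267).

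Among the class I deacetylases, which work in corepressor complexes, Hdac1 was the most abundant of all 57 members per kilobase in every group, at 648 in synovial Tregs, 815 in arthritic nodes and 834 in control nodes. Normalized counts of Hdac1 were 2143, 2110.03 and 2439.6 in synovial Tregs, 2955, 2929 and 2542 in arthritic nodes and 2734, 2794 and 3088 in control nodes. Synovial libraries were below all nodes by a modest amount, -0.33 ± 0.11 (adjusted p = 0.0368) on the log2 scale. It was no longer called without synovial library 1 or 2 (adjusted p = 0.102 and 0.0854), without arthritic node library 1 or 2 (0.122 and 0.115), with only the libraries of the pair of groups compared (0.0599) and with mouse number added to that fit as a block (0.0824). Hdac2, Hdac3 and Hdac8 had log2 fold changes of -0.22, -0.30 and -0.34, and Hdac6, a tubulin deacetylase, -0.48, none called. Hdac3 was called lower under quantile normalization (adjusted p = 0.0341).

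Sirtuins are deacylases that depend on NAD. Of 7 tested, 2 rose, 1 fell and 4 did not pass the test (42.9% called, against 33.8% of all genes). Sirt1 (chromosome 10, 63319005 to 63381704, minus strand), a mainly nuclear deacetylase whose substrates include Foxp3, had normalized counts of 407, 328 and 285 in synovial Tregs, 168, 206 and 119 in arthritic nodes and 149.5, 153 and 138 in control nodes. All synovial libraries were above all nodes, with a log2 fold change of 1.07 ± 0.28 (adjusted p = 0.0111), but leaving out synovial library 1 ended the call (adjusted p = 0.0553). Sirt5 (chromosome 13, 43365496 to 43395203, plus strand), a mitochondrial enzyme that removes succinyl and related groups, had 72.7, 45.8 and 69.7 in synovial Tregs, 243, 193 and 134 in arthritic nodes and 179, 211 and 331 in control nodes. All synovial libraries were below all nodes, -1.57 ± 0.37 (adjusted p = 0.00554). The mitochondrial sirtuin genes Sirt3 and Sirt4 were not called, with log2 fold changes of -0.25 (95% interval -1.08 to 0.58) and -0.22 (95% interval -0.93 to 0.49).

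Sirt2, a mostly cytoplasmic deacetylase, had normalized counts of 1274, 912 and 1363 in synovial Tregs, 597, 734 and 939.9 in arthritic nodes and 655, 541 and 421 in control nodes. Synovial library 2 lay below arthritic node library 3, and the log2 fold change was 0.65 ± 0.22 (adjusted p = 0.0408) over arthritic nodes and 1.13 ± 0.22 (adjusted p = 0.00158) over control nodes, which no synovial library overlapped. Over arthritic nodes Sirt2 was no longer called without synovial library 1 or 3 (adjusted p = 0.122 and 0.135), without arthritic node library 1 or 2 (0.16 and 0.098), with no filter on low values (0.055), under TMM or quantile scaling (0.0514 and 0.1) and in edgeR's quasi-likelihood test (0.0573). Exons of Sirt2 overlap those of Nfkbib on the opposite strand, which averaged 3138 ± 504 in synovial Tregs and 969 ± 81.9 in arthritic nodes. If strand was not used, the Sirt2 count could be affected, in a direction that depends on how shared reads were counted. Sirt6 and Sirt7, both nuclear, had log2 fold changes of 0.02 and -0.16. Sirt7 was the second most abundant member per kilobase in every group, but it shares exon sequence with Mafg on the same strand and its level is therefore uncertain. Mafg averaged 290.00 ± 23.1 in synovial Tregs and 67.6 ± 10.5 in arthritic nodes. Under quantile normalization Sirt7 was called lower (adjusted p = 0.0141).

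The DNA methyltransferase genes all had negative log2 fold changes in synovial Tregs, and 1 of 3 was called (33.3%, against 33.8% of all genes). Dnmt1 (chromosome 9, 20907209 to 20959888, minus strand), which copies methylation to the new strand after replication, had normalized counts of 516, 459 and 708 in synovial Tregs, 785, 935 and 855 in arthritic nodes and 660.4, 644 and 1106 in control nodes. Synovial libraries were below the arthritic nodes but overlapped the control nodes, of which library 3 was the highest of all. Over arthritic nodes Dnmt1 had a log2 fold change of -0.63 ± 0.23 (adjusted p = 0.0476). It was no longer called without synovial library 1 or 2 (adjusted p = 0.125 and 0.148), without arthritic node library 1, 2 or 3 (0.0759, 0.138 and 0.105), with no filter on low values (0.0635) and in edgeR's quasi-likelihood test (0.0526).

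Dnmt3a, which sets new methylation, had normalized counts of 479, 397 and 656 in synovial Tregs, 812, 648 and 714 in arthritic nodes and 865, 793 and 941 in control nodes. Synovial library 3 just overlapped arthritic node library 2, and all synovial libraries were below the control nodes. The log2 fold change was -0.53 ± 0.19 (adjusted p = 0.0511) over arthritic nodes, just short of the threshold, and -0.79 ± 0.19 (adjusted p = 0.00623) over control nodes. Over arthritic nodes it was called without synovial library 3 (adjusted p = 0.0091), with a pseudocount of 5 (0.0494), with a filter at a mean of 50 (0.0457) and under TMM or quantile scaling (0.0386 and 0.032). Dnmt3b was low and variable, at 107, 36.4 and 73.0 in synovial Tregs, 101, 114 and 86.5 in arthritic nodes and 87.3, 209 and 75.8 in control nodes, overlapping in all groups.

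The TET genes, whose enzymes keep the Foxp3 enhancer unmethylated in Tregs, were called in 1 of 3 cases, as Tet2 rose (33.3%, against 33.8% of all genes). Tet2 (chromosome 3, 133463679 to 133545139, minus strand) had normalized counts of 1050.1, 1249 and 1606 in synovial Tregs, 825, 607 and 528 in arthritic nodes and 719, 751 and 872 in control nodes. All synovial libraries were above all nodes, with a log2 fold change of 1.00 ± 0.20 (adjusted p = 0.00214) over arthritic nodes. Tet1 (chromosome 10, 62804570 to 62908996, minus strand) had 45.2, 47.0 and 39.3 in synovial Tregs, 151, 101 and 58.5 in arthritic nodes and 157, 233 and 172 in control nodes, 3 steps without overlap.

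The log2 fold change of Tet1 was -1.12 ± 0.41 (adjusted p = 0.0537) over arthritic nodes, which was not called, and -2.05 ± 0.41 (adjusted p = 0.00191) over control nodes. Over arthritic nodes Tet1 was called without arthritic node library 3 (adjusted p = 0.0201), with a filter at a mean of 50 (0.0492), under TMM or quantile scaling (0.0469 and 0.0392) and in edgeR's quasi-likelihood test or DESeq2 (0.032 and 0.0197). Tet3 had 361, 497 and 312 in synovial Tregs, 496, 619 and 327 in arthritic nodes and 483, 631 and 376 in control nodes, overlapping throughout, with a log2 fold change of -0.28 (95% interval -0.88 to 0.33) over arthritic nodes. Per kilobase, Tet1 was scarce in every group, at 2.84 in synovial Tregs, 6.7 in arthritic nodes and 12.1 in control nodes, against 77.2, 38.7 and 46.3 for Tet2.

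**Figure D3:**
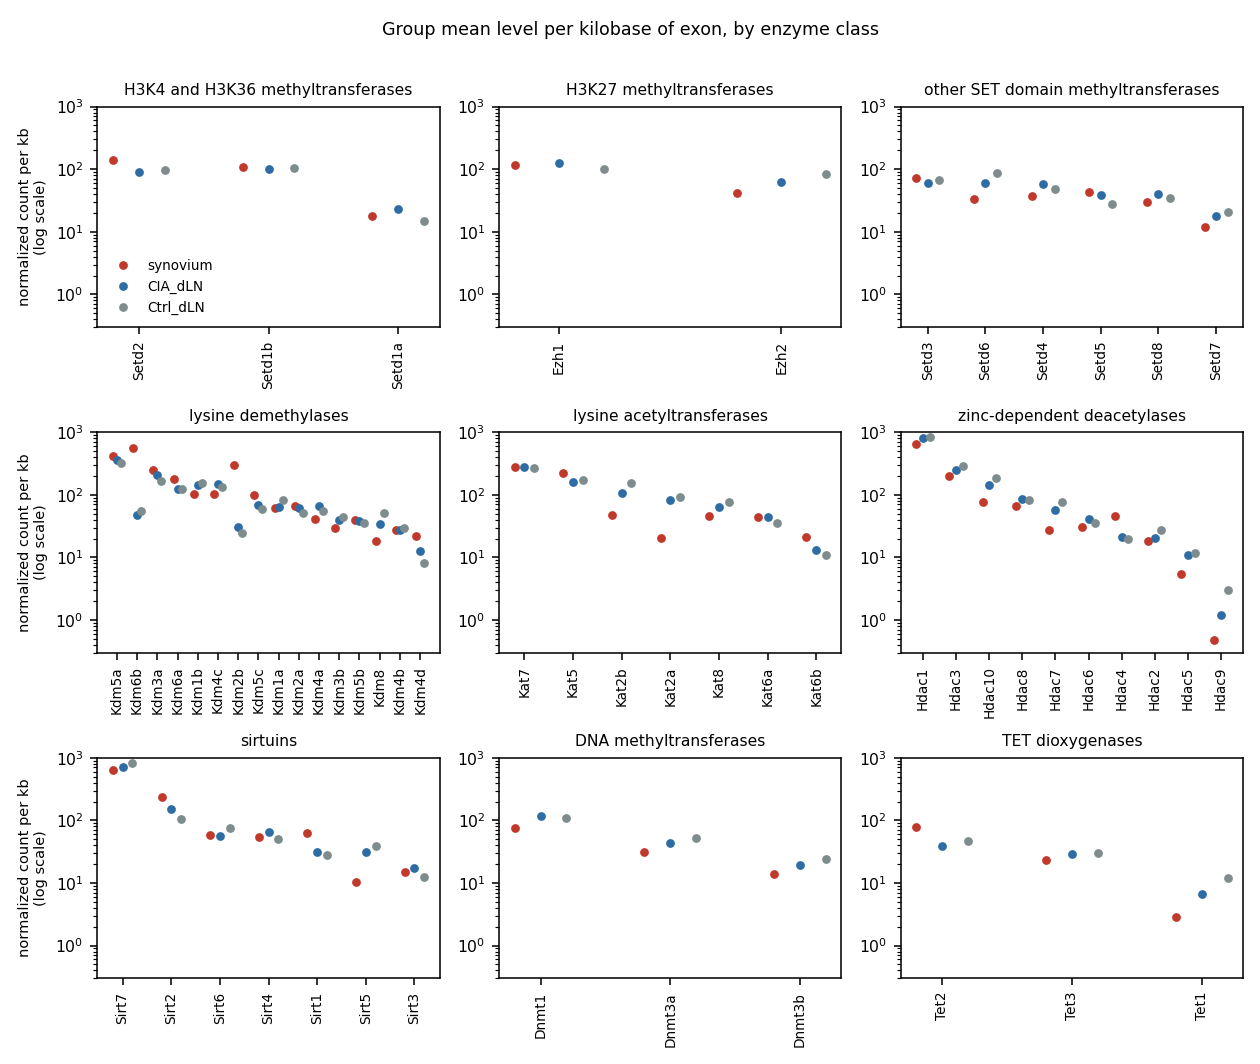
Group mean level of each enzyme gene per kilobase of exon (y axis, log scale), by class, for synovial, arthritic node (CIA_dLN) and control node (Ctrl_dLN) Tregs. Hdac1 and Sirt7 lead in every group, whereas Kdm6b and Kdm2b, among the highest in synovial Tregs at 554 and 294 per kilobase, are at 54.1 or less in nodes.

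Because the level per kilobase allows members to be set beside each other, the 57 could be ranked within each group. In synovial Tregs the order began with Hdac1, Sirt7, Kdm6b, Kdm5a and Kdm2b. In arthritic nodes it began with Hdac1, Sirt7, Kdm5a, Kat7 and Hdac3, and Kdm6b and Kdm2b were at rank 32 and 44. In control nodes they were at rank 29 and 47. Kat2a was at rank 47 in synovial Tregs, 19 in arthritic nodes and 18 in control nodes, and Sirt5 at 54, 42 and 37. The means of Hdac1 and Sirt7 per kilobase in synovial Tregs, 648 and 644, differed by less than the spread of either.

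A ratio of 2 genes within a library is not changed by dividing the library by 1 factor, as the deposited or TMM scaling does, though quantile normalization can change it. Log2 ratios of the deposited values were taken for pairs from the same enzyme family, chosen after their values had been seen and therefore given without a test. The ratio of Kdm6b to Kdm6a averaged 1.29 ± 0.48 (SD, n = 3) in synovial Tregs, -1.63 ± 0.17 in arthritic nodes and -1.48 ± 0.26 in control nodes. That of Kdm2b to Kdm2a averaged 1.76 ± 0.11 in synovial Tregs, -1.43 ± 0.08 in arthritic nodes and -1.57 ± 0.77 in control nodes. In both pairs the order of the pair was turned round in every synovial library.

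The ratio of Hdac4 to Hdac7 was 1.92 ± 0.55 in synovial Tregs, -0.17 ± 0.06 in arthritic nodes and -0.69 ± 0.36 in control nodes. The ratio of Sirt1 to Sirt5 was 2.43 ± 0.40 in synovial Tregs, -0.20 ± 0.31 in arthritic nodes and -0.66 ± 0.53 in control nodes. The ratio of Tet2 to Tet1 was 4.84 ± 0.42 in synovial Tregs, 2.72 ± 0.38 in arthritic nodes and 2.07 ± 0.34 in control nodes. In these 3 pairs no synovial library overlapped a node library. That was fixed in advance, since the first gene of each pair lay above all nodes in synovial Tregs and the second below. The ratios of Kat2a to Kat2b and of Dnmt3a to Dnmt1 overlapped between synovial Tregs and both kinds of node. The ratio of Ezh2 to Ezh1, -1.74 ± 0.93 in synovial Tregs, -1.17 ± 0.26 in arthritic nodes and -0.44 ± 0.12 in control nodes, overlapped the arthritic but not the control nodes.

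**Figure D4:**
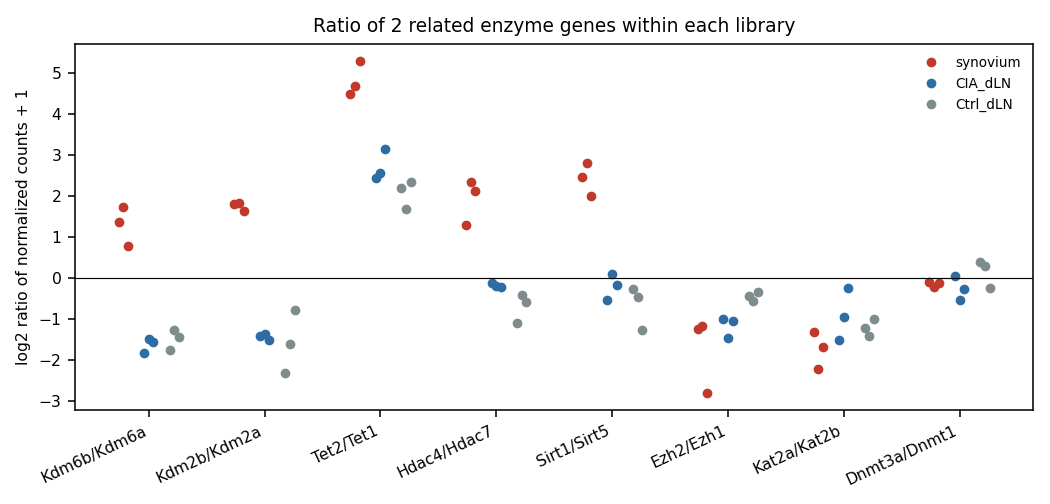
Log2 ratio of 2 related enzyme genes within each library (y axis, points), for 8 pairs in synovial, arthritic node (CIA_dLN) and control node (Ctrl_dLN) Tregs. The Kdm6b to Kdm6a and Kdm2b to Kdm2a ratios are above 0 in every synovial library and below 0 in every node library.

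In the disease comparison, node Tregs of arthritic against control mice, none of the 57 enzyme genes was called by limma, edgeR's quasi-likelihood test or DESeq2, against 0.343% of all genes tested by limma (0.335% higher and 0.00881% lower). At an unadjusted p under 0.05 there were 4 (7.02%, against 9.08% of all genes): Setd5, 0.55 ± 0.23, Sirt2, 0.49 ± 0.22, Kat2b, -0.52 ± 0.19, and Tet1, -0.93 ± 0.41 on the log2 scale. Their adjusted p-values were 0.511, 0.548, 0.407 and 0.54. The libraries of the groups did not overlap for 9 members (4 higher and 5 lower), against 14.9% of all genes (7.89% higher and 7.03% lower). Intervals for the members that changed most in synovium were -0.18 (95% interval -0.67 to 0.30) for Kdm6b, 0.44 (95% interval -0.17 to 1.06) for Kdm2b and -0.20 (95% interval -0.86 to 0.46) for Kat2a, so a shift of 3 log2 units in either direction lay outside them. For Hdac9, with few reads, the interval ran from -3.52 to 0.74 and little could be said. Without control node library 1, which stood apart, the count of members called stayed at 0.

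Set against control nodes, synovial Tregs differed in both tissue and disease. Of the 57 genes 26 were called (45.6%), 13 higher and 13 lower, against 40.1% of all genes tested (21.6% higher and 18.5% lower). This comparison shares its synovial libraries with the tissue comparison and its control libraries with the disease comparison, so the 3 are not independent. Without control node library 1, 10 were called higher and 12 lower. Kdm3a and Kdm5a were higher, with log2 fold changes of 0.55 ± 0.15 (adjusted p = 0.0106) and 0.41 ± 0.13 (adjusted p = 0.0232), as was Setd5, 0.68 ± 0.23 (adjusted p = 0.0311). Setd6, which methylates the NF-κB subunit RelA, had normalized counts of 78.2, 34.1 and 75.3 in synovial Tregs, 100.01, 144 and 98.7 in arthritic nodes and 178, 141 and 177 in control nodes. All its synovial libraries were below all nodes, with -1.47 ± 0.40 (adjusted p = 0.0118) over control nodes. Kdm1b, Kdm3b and Hdac3 were lower too, -0.60 ± 0.18 (adjusted p = 0.0197), -0.58 ± 0.18 (adjusted p = 0.0203) and -0.51 ± 0.14 (adjusted p = 0.0119). Kat6b and Sirt1 reached 0.97 ± 0.23 (adjusted p = 0.00551) and 1.19 ± 0.28 (adjusted p = 0.00506), and Hdac4 1.14 ± 0.29 (adjusted p = 0.00834).

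Several of these calls over control nodes missed the threshold with 1 library left out, with no change in direction, and for most of them more than 1 library did so. The Setd5 call was lost without synovial library 1 or 3 (adjusted p = 0.0819 and 0.118) or control node library 1 (0.122), and with only the libraries of the pair of groups compared (0.0635). The Kdm5a call was lost without synovial library 1 or 2 (0.0566 and 0.077) or control node library 1 or 3 (0.0574 and 0.0788), and quantile normalization brought its log2 fold change to 0.03 and that of Kdm3a to 0.33 (adjusted p = 0.827 and 0.0938). The Kdm1b call was lost without synovial library 3 (0.0628) or control node library 1 or 3 (0.0555 and 0.0699). The Kdm3b call was lost without synovial library 1 or 2 (0.0701 and 0.0536) or control node library 2 or 3 (0.0522 and 0.0678). The Tet2 call was lost without synovial library 3 (0.0531), and that of Hdac1 without synovial library 1 or 2 (0.0638 and 0.051) or control node library 3 (0.0735). Setd2, at 0.48 ± 0.17 (adjusted p = 0.0437), lost its call without each synovial or control node library other than synovial library 1 (adjusted p = 0.0575 to 0.144), and with no filter, TMM or quantile scaling, only the groups compared, or edgeR (0.0526 to 0.162). Kdm6a lost its call under quantile normalization (0.0824).

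Other genes were called over control nodes with 1 library left out. Without synovial library 3 these were Dnmt1, Hdac5 and Kdm4a (adjusted p = 0.0441, 0.0166 and 0.045), all lower. Without synovial library 2 they were Hdac9, Kat8, Setd7 and Sirt7 (0.0282, 0.0393, 0.00973 and 0.0361), also lower, and without control node library 3 Sirt7 was called lower and Kdm4d higher (0.0204 and 0.0329). Kdm8, at -1.41 ± 0.54 (adjusted p = 0.0536), was called with 8 other settings of the fit or the tool (adjusted p = 0.0307 to 0.0496)

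The enzymes act in complexes whose other subunits were listed from general knowledge, and these lists were read by counts in the tissue comparison. Of 30 Polycomb partner genes 6 rose and 2 fell (26.7% called, against 33.8% of all genes). The largest risers were Aebp2, 2.22 ± 0.16 (adjusted p = 9.42e-07), Yaf2, 1.26 ± 0.17 (adjusted p = 0.000157), and Eed, 1.00 ± 0.14 (adjusted p = 0.000179), and those that fell were Cbx6, -1.66 ± 0.39 (adjusted p = 0.00578), and Pcgf1, -0.99 ± 0.27 (adjusted p = 0.0138). Eed and Aebp2 are subunits of PRC2, and Yaf2 and Pcgf1 belong to variant forms of PRC1, Pcgf1 to the form that Kdm2b brings to CpG islands. Of 14 subunits of COMPASS and MLL complexes, which methylate H3K4, none rose and 4 fell (28.6% called): Men1, -1.39 ± 0.28 (adjusted p = 0.00209), Dpy30, -0.52 ± 0.15 (adjusted p = 0.0161), Pagr1a, -0.51 ± 0.13 (adjusted p = 0.00913), and, by less, Psip1. The median was 0.17 for the Polycomb list and -0.22 for the COMPASS list.

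Of 26 corepressor subunits that work with deacetylases 5 rose and 3 fell (30.8% called, against 33.8% of all genes). Ing2 and Mbd2 rose, 1.52 ± 0.47 (adjusted p = 0.0249) and 1.35 ± 0.18 (adjusted p = 0.000141). Ing2 averaged 74.8 ± 2.45 in synovial Tregs, 26.7 ± 9.21 in arthritic nodes and 65.8 ± 9.66 in control nodes. Over control nodes it was not called, 0.19 ± 0.47 (adjusted p = 0.776). Sap30 rose too, with 37.4 ± 11.0 in synovial Tregs and 1.6 ± 2.78 in arthritic nodes, a level below 3 reads, so no fold change is given. Chd3, -0.97 ± 0.18 (adjusted p = 0.00122), Mbd3, -0.94 ± 0.30 (adjusted p = 0.0279), and Tbl1x, -0.81 ± 0.19 (adjusted p = 0.00558), fell, and the list's median was 0.05. Of 37 acetyltransferases with other names and partner subunits 18.9% were called. Of these 3 rose, among them Ncoa2, 1.17 ± 0.17 (adjusted p = 0.000186), and Hat1, 0.95 ± 0.14 (adjusted p = 0.000303), and 4 fell, among them Elp3, -1.25 ± 0.19 (adjusted p = 0.000265). The median of that list was 0.04. Ep300 and Crebbp, the p300 and CBP coactivators, looked up after other values had been seen, were not called, at -0.14 ± 0.24 (adjusted p = 0.692) and 0.01 ± 0.17 (adjusted p = 0.976).

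Of 30 further lysine and arginine methyltransferase genes 2 rose and 8 fell (33.3% called, against 33.8% of all genes), with a median of -0.49. Dot1l, the H3K79 methyltransferase, rose, 1.53 ± 0.42 (adjusted p = 0.0138), as did Whsc1l1, 0.69 ± 0.20 (adjusted p = 0.0192), and the arginine methyltransferase genes Prmt3, -1.39 ± 0.22 (adjusted p = 0.000389), and Prmt5, -1.32 ± 0.21 (adjusted p = 0.000387), were among those that fell. Another list held 12 tested genes of demethylases and related proteins, not all of them demethylases (41.7% called). Of these 3 rose, Jhdm1d, Hif1an and, by the most, Jmjd1c, 1.15 ± 0.15 (adjusted p = 0.000115). Mina and Hspbap1 fell, and the median was 0.02. Of 22 readers and repair factors of DNA methylation (22.7% called) 2 rose, Gadd45b, 4.78 ± 0.29 (adjusted p = 1.8e-07), and Uhrf2, 1.60 ± 0.26 (adjusted p = 0.000536), and 3 fell, Idh2, -1.86 ± 0.19 (adjusted p = 1.66e-05), Mbd4, -1.33 ± 0.30 (adjusted p = 0.00508), and Apobec3, -0.88 ± 0.10 (adjusted p = 2.2e-05). Gadd45b is a stress-induced factor linked to DNA demethylation, and the median of its list was -0.09. Of 22 bromodomain genes (50% called) 4 rose, led by Baz1a, 1.56 ± 0.23 (adjusted p = 0.000269), and 7 fell, led by Sp110, -1.46 ± 0.12 (adjusted p = 2.35e-06), and Sp100, -1.40 ± 0.14 (adjusted p = 1.48e-05), with a median of -0.14. In the disease comparison, of these 8 lists of chromatin genes only Gadd45b was called.

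Other features moved with the tissue comparison as well. Of 25 genes of the immediate-early and stress response, which tissue dissociation can induce, 20 were higher in synovial Tregs and none lower, with a median log2 fold change of 1.87, and of 30 cell cycle genes 3 were higher and 3 lower, with a median of 0.11. Of 10 T cell and Treg markers 4 were higher and 1 lower, and the list made up 1.29% to 1.38% of normalized counts in synovial libraries, 0.893% to 1.01% in arthritic nodes and 1.01% to 1.04% in control nodes. Of 6 dendritic cell markers tested 3 were higher (Zbtb46, Xcr1 and Cd74) and none lower, and the list of 11 made up 0.0956% to 0.113% in synovial libraries, 0.04% to 0.0497% in arthritic nodes and 0.0275% to 0.0443% in control nodes, while Itgax and Clec9a were at 0 in every synovial library. Of 6 macrophage and monocyte markers tested 1 was higher and 2 lower. That list made up 0.0397% to 0.0530% in synovial libraries, 0.0807% to 0.104% in arthritic nodes and 0.0981% to 0.104% in control nodes. Of 8 fibroblast markers tested 1 was higher (Sparc) and 1 lower (Prg4), with a median log2 fold change of 2.33. Col1a1, Col1a2, Col3a1, Dcn, Lum and Sparc were highest in synovial library 3 in every case, and all but Lum were highest in library 3 among the arthritic nodes. Sparc had 44.1, 71.6 and 768 normalized counts in synovial libraries, 0.870, 0.962 and 44.6 in arthritic nodes and 0, 0.903 and 1.83 in control nodes. The fibroblast list made up 0.0216% to 0.0471% in synovial libraries, 0.0332% to 0.0417% in arthritic nodes and 0.0371% to 0.0398% in control nodes. It includes Thy1, which T cells express too, so this share does not measure fibroblast RNA alone. Dcn averaged 166 ± 251 in synovial Tregs, 13.7 ± 23.7 in arthritic nodes and 0.304 ± 0.527 in control nodes. The mast cell list made up 0.00487% to 0.00733% in synovial libraries, 0.000397% to 0.00145% in arthritic nodes and 0.000681% to 0.00124% in control nodes, with Kit and Hdc higher and Mcpt4, Cma1, Fcer1a, Ms4a2 and Mcpt8 at 0 in synovial libraries. The keratinocyte list made up 0.00685% to 0.00835% in synovial libraries, 0.00299% to 0.00343% in arthritic nodes and 0.00278% to 0.00301% in control nodes, with Sfn and Perp higher, Krt10 lower and Krt5 at 0 in synovial libraries. The part of dissociation and of other cells in the changes of enzyme genes was not tested.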

How the data were processed

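Per the submitters' processing notes, HISAT2, HTSeq, DESeq2 and the mm10 genome were used, with no version, annotation or strand setting stated. The deposited table holds a normalized signal, in which each gene's reads were scaled by a factor common to the library: in each library 100% of nonzero values were whole multiples of a constant, within 0.01. A value of 3 reads, the floor for counts of 0, came to 2.61 to 3.52 normalized. A second table by the authors gives mean signal, log2 fold changes with errors, a test score (Wald statistic), p-values and adjusted p-values, per the file headers. A DESeq2 rerun on the recovered reads gave its log2 fold changes, synovium over CIA_dLN, within 1.36e-06.

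Tests used limma 3.58.1 in R 4.3.3 (trend) on log2(value + 1), which understates changes of low genes. All 9 libraries entered each fit, 11357 genes with a mean of 10 or more were tested, two-sided, and called at an adjusted p under 0.05. Alternatives were pseudocounts of 0.5 and 5, no filter or a mean of 50, TMM and quantile scaling, fits of only the 2 groups compared, edgeR 4.0.16 and DESeq2 1.42.0 on recovered reads, a block for mouse number, and leaving out each library in turn. The scripts were tested on simulated data. By the titles the mouse number pairs synovial and arthritic node libraries, and residuals of same-numbered libraries correlated at 0.02, 0.05 and 0.09. Those of same-numbered arthritic and control node libraries, from different mice, correlated at 0.0046, 0.067 and 0.070. The correlations therefore do not settle whether the numbers pair mice.

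Members and lists were chosen with earlier results of these data known. Given in full were called members with an absolute log2 fold change of 0.8 or more, at most 10 per direction and comparison, and Dnmt1, Dnmt3a, Tet1, Tet2, Tet3, Ezh1, Ezh2, Kdm6a and Kdm6b, and of each list up to 3 called genes per direction. Positions came from GENCODE vM21 on GRCm38, which is also called mm10, and exon length was the union of exons. Promoter stretches came from RefSeq (GRCm38.p6), without the 5 bases nearest the Kdm2b start, which an annotated exon covers. Intervals given with log2 fold changes came from the limma fits and measure only the spread among libraries.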

Additional observations from a re-analysis of the deposited data

How the results depend on the processing

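Of 910 values of the 57 genes under alternatives in each comparison, 31 changed sign in the tissue comparison, 23 in the disease comparison and 17 against control nodes, none of a called gene. Of the 18 tissue calls 8 held in every setting run (Kdm6b, Kdm2b, Tet2, Kat2a, Kat2b, Sirt5, Hdac7 and Hdac10), and of the 26 calls against control nodes 17 did. Quantile normalization moved the median of all genes by -0.12 in the tissue comparison and -0.13 against control nodes, and the share of calls that were higher to 42.2% and 42.1%, against 52.9% and 53.9% with the deposited scaling. It gave 6 enzyme genes higher and 13 lower in the tissue comparison, and the cause was not tested. Leaving out a library gave 5 to 9 higher and 6 to 12 lower in the tissue comparison, and the fewest higher, 5, came without arthritic node library 2.

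In the disease comparison 39 genes of all were called, against 0 with only the libraries compared, 0 with the replicate block, 173 by DESeq2, and 0 to 66 with a library left out: 0 and 1 without arthritic node library 2 or 3, and 23 and 66 without control node library 2 or 3. The cause was not tested, and the enzyme genes had 0 calls in each of these. Signs that turned with a library left out were of uncalled values. In the tissue comparison Ezh1 ranged from -0.19 to 0.0449, with 0.03 without synovial library 2. In the disease comparison Sirt1 ranged from -0.0528 to 0.34, Tet3 from -0.27 to 0.19, with 0.12 without control node library 2, and Kdm6a from -0.12 to 0.0226, with 0.00093 without control node library 3. In the tissue comparison a fit of only the groups compared gave 10 enzyme genes higher and 7 lower, with the call of Hdac1 lost, and the pairing of mouse numbers added to it as a block gave 9 and 7, with that of Kat6b lost too and no other tissue call changed. Numbers of control mice pair no animals. Among the members with the fewest reads, Hdac9 (mean 23.1) gave the widest intervals; how much of the spread between libraries comes from depth was not tested.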
